A study of Homo sapiens with 2 samples.

Results

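GAL, NPY, CARTPT and VGF are 4 of the 33538 genes counted in single SH-SY5Y cells, and each encodes a secreted neuropeptide precursor. They were chosen by their measured UMI counts in these same cells, so their levels, distributions and correlations are a description and no p-value is given for them. SH-SY5Y is a human neuroblastoma cell line, itself a clone of an earlier line. Untreated cells of 1 culture were divided into 2 flasks, SplitA and SplitB, grown without synchronization in DMEM with 10% fetal bovine serum, marked with a different hashtag antibody in each flask and then mixed, and 1 droplet library of mRNA was sequenced with a hashtag library beside it. The flask of a cell is therefore known from its hashtag counts only: a cell belonged to a flask where that flask's hashtag had at least 3 times the counts of the other and the other did not exceed a fixed limit. Of 2879 cells, 899 of SplitA and 1195 of SplitB passed these limits with 1000 or more genes with a UMI (a unique molecular identifier, which marks 1 captured mRNA molecule at its 3′ end).

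The kept cells of SplitA held 5852780 UMIs in all, with a median of 6063 per cell and a range of 1948 to 27205. Those of SplitB held 8066440, with a median of 6346 and a range of 1801 to 27006. Levels are given as CPM, the UMIs of a gene per 1000000 UMIs of all genes in the same cells. Since a UMI is counted once per molecule at the 3′ end, the length of a gene does not enter a CPM. Intervals are exact 95% intervals, Poisson for CPM and Clopper-Pearson for shares of cells, and cover counting error only. A Poisson interval of a CPM does not cover the spread between cells, which can be far wider. With 1 flask against 1 flask, and both from the same culture, no test between flasks was possible and cells were not used as replicates.

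Neuropeptides are made as longer precursors that enter the regulated secretory pathway, are cut by prohormone convertases and are stored with granins in dense-core granules until a stimulus releases them. Galanin (GAL) and neuropeptide Y (NPY) act on families of G protein-coupled receptors, and NPY is a co-transmitter of noradrenaline in sympathetic neurons. CARTPT encodes the cocaine- and amphetamine-regulated transcript peptide of hypothalamic, enteric and sympathetic neurons. VGF, first known as a gene induced by nerve growth factor, encodes a granin-like precursor. Neuroblastoma arises from the sympathoadrenal lineage, in which these peptides are made.

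The genes lie apart in the genome (GRCh38, GENCODE release 44), and no other annotated gene overlaps them. GAL (ENSG00000069482) is on the plus strand of chromosome 11 from 68683779 to 68691175, and NPY (ENSG00000122585) on the plus strand of chromosome 7 from 24284188 to 24291862. CARTPT (ENSG00000164326) is on the plus strand of chromosome 5 from 71719275 to 71721048, and VGF (ENSG00000128564) on the minus strand of chromosome 7 from 101162509 to 101165569. Transcription of several neuropeptide genes is driven through the cyclic AMP response element (CRE), TGACGTCA, which CREB binds. The 250 bases before the RefSeq start site of 3 of the 4 genes, on the strand of the gene and in GRCh38.p14, are shown because they differ in this element, which stands in capitals. GAL is named only.

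CARTPT promoter, chr5:71719025-71719274, plus strand: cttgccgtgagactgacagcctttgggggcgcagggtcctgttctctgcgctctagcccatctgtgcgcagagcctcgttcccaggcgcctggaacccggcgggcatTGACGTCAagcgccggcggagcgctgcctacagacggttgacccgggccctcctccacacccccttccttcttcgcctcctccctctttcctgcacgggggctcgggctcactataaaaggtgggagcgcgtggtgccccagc
VGF promoter, chr7:101165570-101165819, minus strand: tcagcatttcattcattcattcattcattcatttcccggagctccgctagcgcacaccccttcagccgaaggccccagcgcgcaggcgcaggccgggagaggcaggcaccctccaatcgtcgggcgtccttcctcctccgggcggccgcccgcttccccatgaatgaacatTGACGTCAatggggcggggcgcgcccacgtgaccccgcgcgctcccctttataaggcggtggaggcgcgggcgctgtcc
NPY promoter, chr7:24283940-24284189, plus strand: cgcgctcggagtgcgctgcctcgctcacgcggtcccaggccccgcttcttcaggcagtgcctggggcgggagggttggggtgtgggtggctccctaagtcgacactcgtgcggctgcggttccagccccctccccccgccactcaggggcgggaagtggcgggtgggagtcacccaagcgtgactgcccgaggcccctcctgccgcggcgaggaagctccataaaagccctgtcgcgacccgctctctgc

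The element begins 143 bases before the start of CARTPT and 79 bases before that of VGF, while the 250 bases of NPY hold neither the whole element nor its first 5 bases, TGACG, on either strand. Of 35116 human promoters of the same length in the table, 578 (1.65%) hold the whole element and 7451 (21.2%) hold TGACG, the latter count including the former. These matches describe letters in these windows.

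GAL had the highest level of the 4 genes. SplitA cells held 7040 GAL UMIs and SplitB cells 10680, which gave 1203 CPM (interval 1175 to 1231) and 1324 CPM (1299 to 1349), at ranks 120 and 114 of all genes. A GAL UMI was found in 83.8% of SplitA cells (81.2% to 86.1%) and 84.5% of SplitB cells (82.3% to 86.5%). NPY was next with 339 CPM (324 to 354) in SplitA and 422 CPM (408 to 436) in SplitB, and was found in 60.6% and 63.7% of cells. VGF had a lower level, 212 CPM (201 to 224) and 282 CPM (270.2 to 293), in nearly the same shares of cells, 61.2% and 63.7%. CARTPT stood far below with 65 UMIs in SplitA and 136 in SplitB, which is 11.1 CPM (8.57 to 14.2) and 16.9 CPM (14.1 to 19.9), and was found in 37 cells (4.12%, 2.91% to 5.63%) and 43 cells (3.598%, 2.62% to 4.82%). The order GAL, NPY, VGF, CARTPT held in both flasks with intervals that did not overlap. By share of cells NPY and VGF could not be ordered, because their intervals in each flask overlapped.

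**Figure D1:**
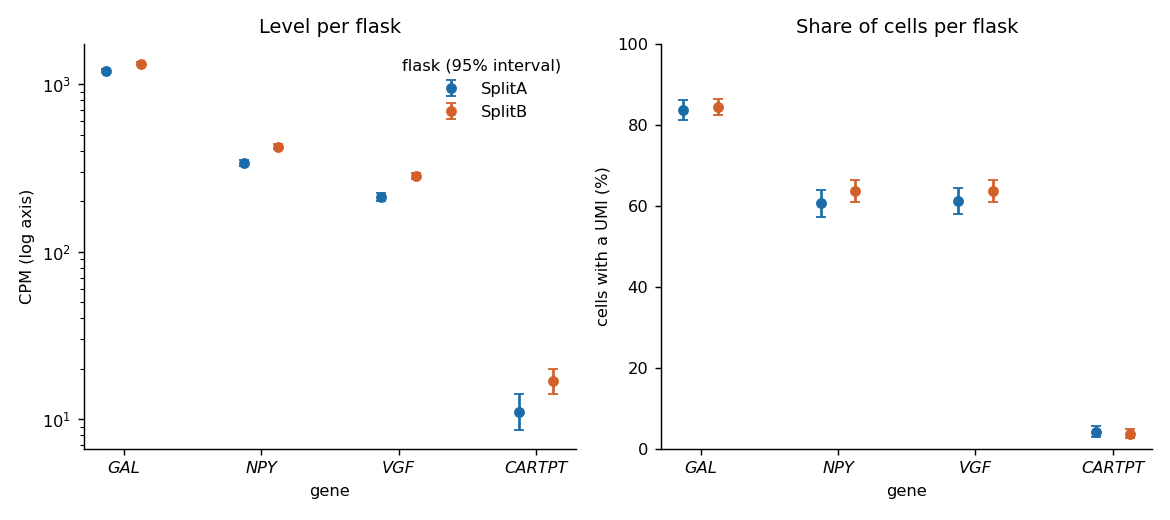
CPM on a log axis (left) and percent of cells with a UMI (right) of each gene in SplitA (899 cells) and SplitB (1195 cells), with points at the value and bars for the exact 95% interval. GAL is highest at 1203 and 1324 CPM and CARTPT lowest at 11.1 and 16.9 CPM, and NPY and VGF differ in CPM but share about the same percent of cells.

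A share of cells with a UMI rises with depth, so UMIs of each cell were also drawn down to 2000, which left out 1 cell of SplitA and 2 of SplitB. At this depth GAL was found in 59.0% and 60.5% of cells, NPY in 37.8% and 40.3%, VGF in 32.7% and 35.7%, and CARTPT in 1.67% and 1.01%. The culture holds no cell type that should lack these genes, so the share that free RNA in the droplets would give is not known. The barcodes left out for having under 1000 genes (280 in SplitA, 410 in SplitB, with a median mitochondrial share of 32.6% and 36.7% of UMIs) do not give it either. Each was assigned to a flask by its hashtags, and 262 and 371 had 15% or more mitochondrial UMIs. The paper uses a high share as an index of stressed or low-quality cells. Their values are given as a description and not as a level of free RNA. In them GAL had 465 and 432 CPM, under its level in kept cells in both flasks, and NPY had 227 and 313 CPM. VGF had 487 and 484 CPM there, above its level in kept cells in both flasks. CARTPT had 8 UMIs in 5 of the SplitA barcodes and 17 in 2 of those of SplitB. The 73 multiplets with 1000 or more genes had 1059 CPM of GAL, 259.6 of NPY, 202 of VGF and 19.0 of CARTPT.

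The UMIs of each gene were spread unevenly over cells. The median cell held 3 GAL UMIs in both flasks, while the highest held 454 in SplitA and 212 in SplitB, and the cell after it 182 and 190. The 10% of cells with the most GAL UMIs held 63.0% of them in SplitA and 61.8% in SplitB, and 50 or more GAL UMIs were found in 23 and 53 cells. For NPY the median was 1 in both flasks, the highest cell held 43 and 59, and the top 10% of cells held 47.4% and 50.8%. VGF had a median of 1, with 44.4% and 51.5% of its UMIs in the top 10% of cells. For CARTPT, 10 cells of SplitA and 15 of SplitB held 2 or more UMIs, and only 2 and 5 held 5 or more.

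**Figure D2:**
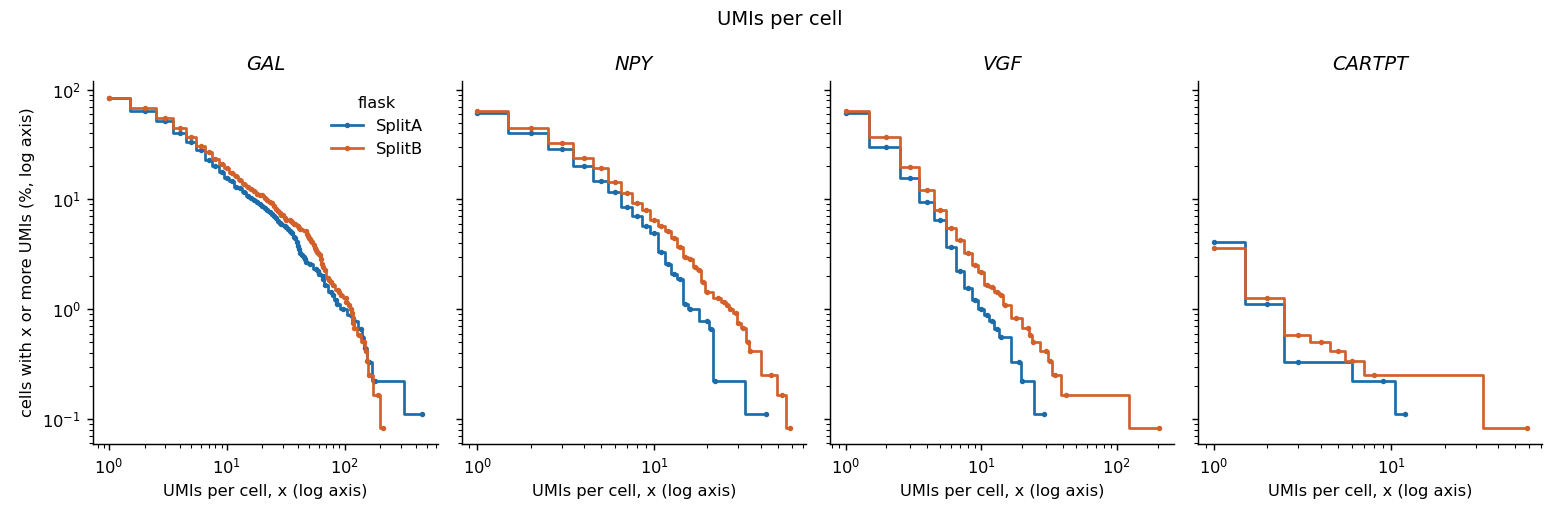
Percent of cells with x or more UMIs (vertical log axis) against x (horizontal log axis) for each gene, with a line per flask. GAL reaches 454 UMIs in 1 SplitA cell and the SplitB lines of VGF and CARTPT end in a single cell with 203 and 58 UMIs, which is the same cell.

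The variance divided by the mean (Fano factor) was computed over cells thinned to 2000 UMIs. It sets the genes against 9143 genes, those with a UMI in 1% or more of these cells in each flask. Its median over these genes was 0.994 in SplitA and 1.01 in SplitB, where pure counting noise would give a value near 1. Genes were not matched by level. The median gene had a thinned mean of 0.0423 and 0.0419 UMIs per cell, against 2.13 and 2.31 for GAL. CARTPT was close to the limit in SplitB, with a UMI in 12 of 1193 thinned cells. GAL had 12.97 and 9.59, at ranks 2 and 9, and NPY had 2.47 and 2.92, at ranks 29 and 30. The SplitA value of GAL includes the cell with 454 GAL UMIs and was not computed without that cell. CARTPT and VGF had 1.58 and 1.40 in SplitA but 5.68 and 5.48 in SplitB. Without the single SplitB cell that held most CARTPT, the SplitB values were 1.79 for CARTPT and 1.88 for VGF, at ranks 90 and 76.

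That SplitB cell held 58 CARTPT UMIs, 42.6% of all CARTPT UMIs of its flask, and 203 VGF UMIs, 8.93% of all VGF UMIs of its flask. It had 8157 UMIs, 2343 genes, a mitochondrial share of 2.76% and hashtag counts of 25 and 644, so its depth was within the range of the other cells. It held no GAL UMI and 4 NPY UMIs. VGF and CARTPT together made up 3.20% of its UMIs. After its values had been seen, its other genes were listed where they had 8 or more UMIs and at least 10 times the CPM of the other SplitB cells, which named 18 genes with VGF and CARTPT among them. The metallothioneins, which bind zinc and copper, were among them: MT2A had 106 UMIs, MT1X 91 and MT1G 19, against 775, 719 and 21 in all other SplitB cells together. TFPI2, a secreted protease inhibitor, had 28 UMIs, as did LDHA, the muscle-type subunit of lactate dehydrogenase. The imprinted gene PHLDA2 had 13 UMIs, against 30 in the other cells, and the stress response gene GADD45G 9, against 48. The cell had 4 UMIs of PHOX2A and 4 of STMN2 but none of GATA2 and 1 of DBH. As 1 cell, it has no replicate.

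The 7 kept cells with 5 or more CARTPT UMIs were not alike in GAL, NPY and VGF. In SplitA the 2 cells with 12 and 9 CARTPT UMIs had 4 and 3 GAL UMIs, 0 and 1 of NPY, and 2 and 5 of VGF. In SplitB the cells with 8, 8, 6 and 5 CARTPT UMIs had 1, 89, 65 and 87 GAL UMIs and 0, 0, 15 and 2 VGF UMIs. All 7 cells, of 4609 to 12072 UMIs each, held DLK1 and GNAS, described below. They had 25 to 194 DLK1 UMIs and 19 to 108 GNAS UMIs. Both genes were abundant over all kept cells, DLK1 at 2566 and 2663 CPM and GNAS at 1933 and 1926 CPM.

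Between flasks the levels were compared as the log2 ratio of CPM, SplitB over SplitA. It was 0.14 for GAL (interval 0.09 to 0.18), 0.32 for NPY (0.24 to 0.40), 0.41 for VGF (0.31 to 0.51) and 0.60 for CARTPT (0.17 to 1.05), and these intervals, which cover counting error only, all lay above 0. In folds these were 1.10, 1.246, 1.33 and 1.52. The paper tested the cells of SplitA against those of SplitB, with cells as the units, and reported no differentially expressed gene. The printed output of that test holds VGF, lower in SplitA and not significant after adjustment, but not GAL, NPY or CARTPT. Its fold is an average over normalized cells, not a ratio of summed CPM. In each flask 5191 genes were seen in 10% or more of the cells, and of these 1.18% were higher by 25% or more in SplitB and 1.39% in SplitA. VGF was past this limit, NPY was just inside it, and CARTPT was not among the 5191. The ratios of CARTPT and, in part, VGF came from the cell described above. With the cell of most UMIs of the gene itself left out in each flask, VGF had 207 and 257 CPM with a log2 ratio of 0.31 (0.20 to 0.41) and CARTPT had 9.07 and 9.68 CPM with a log2 ratio of 0.09 (-0.43 to 0.63). In folds VGF was then at 1.24, inside the limit of 25%, and NPY at 1.251, past it, so both calls changed when 1 cell was left out in each flask. The log2 ratio of NPY was 0.32 as before, and GAL moved to 0.21 because the SplitA cell with 454 GAL UMIs held 6.45% of the GAL of its flask. That cell had 2854 counts of its own hashtag, and its count of the other was exactly at the limit for a single cell. Where cells with over 2 times the median UMIs of their flask were left out (35 and 43 cells), the log2 ratio of GAL was -0.0094 (-0.0565 to 0.0378). Hashtags do not show doublets of the same flask.

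Most cells held RNA of more than 1 of the genes. No UMI of any of the 4 was found in 37 SplitA cells (4.12%, 2.91% to 5.63%) and 37 SplitB cells (3.10%, 2.19% to 4.24%). GAL, NPY and VGF were found together in 34.7% (31.6% to 37.9%) and 38.0% (35.2% to 40.8%) of cells, and all 4 genes in 17 and 21 cells. At 2000 UMIs per cell the shares with none were 18.8% and 16.8%, and those with GAL, NPY and VGF 8.69% and 11.7%. With all UMIs, GAL without the other 3 was found in 12.6% and 12.1% of cells. NPY alone was found in 3.67% and 3.18%, and VGF alone in 4.12% and 4.10%. CARTPT alone was found in 0 cells of SplitA and 1 cell of SplitB. For the count of 0, 3 of 899 cells were taken as the limit it allows, a share of up to 0.334%. At 2000 UMIs per cell, GAL alone was found in 23.6% and 22.3% of cells, and CARTPT alone in 2 cells and 1 cell.

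The share of cells with a UMI of 1 gene was compared between cells with and without a UMI of another. At 2000 UMIs per cell, NPY was found in 39.2% of SplitA cells with a GAL UMI (35.1% to 43.5%) and 35.6% of those without (30.7% to 40.7%), which overlap. In SplitB it was found in 44.2% (40.5% to 47.9%) and 34.4% (30.1% to 38.9%), which do not. VGF was found in 34.9% and 29.6% of SplitA cells with and without GAL, and in 37.8% and 32.5% of SplitB cells, with intervals that overlapped in both flasks. CARTPT was found in 13 of 530 SplitA cells with GAL and 2 of 368 without, and in 10 of 722 and 2 of 471 in SplitB, with overlapping intervals in both flasks. NPY in SplitB was thus the 1 of these 6 comparisons with GAL in which the intervals did not overlap. CARTPT was found in 1.18% of SplitA cells with an NPY UMI and 1.97% of those without, and in 1.04% and 0.983% in SplitB, so NPY and CARTPT had no common direction.

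The levels in single cells were correlated as Pearson's r of the log of 1 plus counts per 10000 UMIs, with the UMIs of the 4 genes left out of each cell's total. The points of a flask share 1 library and the same culture. Over the 899 SplitA and 1195 SplitB cells, r was 0.14 and 0.19 between GAL and NPY, 0.27 and 0.13 between GAL and VGF, 0.17 and 0.11 between GAL and CARTPT, 0.11 and 0.12 between NPY and VGF, 0.15 and 0.09 between CARTPT and VGF, and 0.02 and 0.00390 between NPY and CARTPT. No pair exceeded 0.27, and NPY and CARTPT were the least related in both flasks. The SplitB value of CARTPT and VGF includes the cell with 58 CARTPT and 203 VGF UMIs. Where the cell of most UMIs of each gene was left out in each flask, CARTPT and VGF had 0.15 in SplitA and 0.0177 in SplitB. Over all kept cells their Spearman's rho was 0.14 and 0.037. Thinned to 2000 UMIs per cell, GAL and NPY had 0.07 and 0.13, GAL and VGF 0.14 and 0.11, and GAL and CARTPT 0.13 and 0.07. In counts this sparse, r near these sizes is weak.

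**Figure D3:**
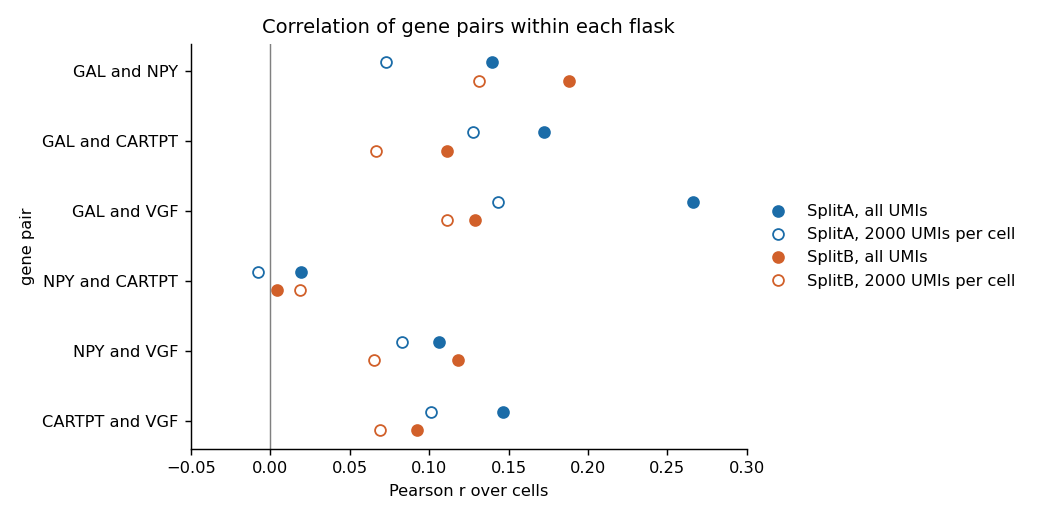
Pearson's r over cells (horizontal axis) for each pair of genes, with filled points for all UMIs and open points for cells thinned to 2000 UMIs, in SplitA and SplitB. GAL with VGF in SplitA is the highest at 0.27, NPY with CARTPT lies next to 0, and the filled points of the other pairs lie between 0.09 and 0.19. The filled SplitB point of CARTPT with VGF, at 0.09, includes the cell with 58 CARTPT UMIs.

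Cells were divided into tertiles by GAL per 10000 UMIs within each flask, with CPM computed without the 4 genes in the total. From the lowest to the highest tertile NPY went from 274 to 406 CPM in SplitA and from 299.8 to 574 in SplitB. VGF went from 154 (136 to 173) over 156 to 314 CPM (290.2 to 338) in SplitA. In SplitB it went from 280.2 over 209 to 346, and without the cell of 203 VGF UMIs the lowest tertile had 196 (179 to 215). CARTPT had 3.38, 12.3 and 16.5 CPM in SplitA. In SplitB it had 30.4, 3.46 and 17.7 CPM, where the first value is 6.26 (3.50 to 10.3) without that same cell. The granin genes CHGA and CHGB, whose proteins help to form dense-core granules, were highest in the top tertile: CHGB was at 58.1, 52.8 and 434 CPM in SplitA and 49.1, 69.6 and 387 in SplitB, and CHGA at 249, 279.8 and 664 and at 251, 313 and 561. The median UMIs per cell went from 5472.5 to 6429 in SplitA and from 5888 to 6789 in SplitB over the same tertiles, and the part of depth in these values was not tested.

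GAL had the most genes with positive r of the 4. Of 5190 genes, 318 (6.13%) had r of at least 0.1 with GAL in both flasks and 30 (0.578%) had r of at most -0.1 in both. S100A11, a calcium-binding protein, had the highest r, 0.51 in SplitA and 0.48 in SplitB, followed by DLK1, a Notch-related membrane protein, with 0.46 and 0.45. S100A6, of the same calcium-binding family, had 0.42 and 0.47, GNAS, the stimulatory G protein subunit that activates adenylyl cyclase, 0.45 and 0.43, CHGB 0.44 and 0.42, and ATP5F1E, a subunit of mitochondrial ATP synthase, 0.35 and 0.35. The lowest were MT-ND1, a subunit of complex I encoded in mitochondria, with -0.32 and -0.23, LDHB with -0.21 and -0.19, the ribosomal protein gene RPS7 with -0.21 and -0.18, and SMC4, a condensin subunit of mitotic chromosomes, with -0.18 and -0.18. Of the 50 genes with the highest r in each flask, 37 were the same for GAL, 21 for NPY, 19 for VGF and 12 for CARTPT. GAL was itself correlated with the UMIs of a cell (r of 0.26 and 0.28 with their log), and at 2000 UMIs per cell 40 genes had r of at least 0.1 in both flasks. The 30 negative genes became 58 with the mitochondrial share under 15%, 76 where 1500 genes per cell were needed and 9 at 2000 UMIs.

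NPY had 87 genes (1.68%) with r of at least 0.1 in both flasks and 3 (0.0578%) with r of at most -0.1. These counts depended on the cells kept and on depth: the positive genes were 7 at 2000 UMIs per cell and 230 where 500 genes per cell sufficed, and the negative genes were 67 with the mitochondrial share under 15%, 61 with a minimum of 1500 genes and 46 by Spearman's rho. LGALS1, which encodes galectin-1, led with 0.36 and 0.28, followed by CALM2, a calmodulin gene, with 0.33 and 0.28. GNG11, a G protein gamma subunit, had 0.26 and 0.32, RGS5, a regulator of G protein signalling, 0.24 and 0.21, SH3BGRL3 0.18 and 0.25, and the adaptor gene DOK4 0.23 and 0.20. The 3 genes with negative r were all ribosomal protein genes, RPS21 at -0.21 and -0.17, RPS18 at -0.19 and -0.13, and RPS3 at -0.19 and -0.10. CALM2 and DOK4 had r of at most 0.0619 with GAL in both flasks. Of the 87 genes, 46 (52.9%) were also among the 318 of GAL (14.5%), beside 6.13% of all genes tested that were positive with GAL. GAL is itself among the 87, and NPY among the 318, and neither could count as shared.

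VGF had 76 genes (1.46%) with r of at least 0.1 in both flasks and 97 (1.87%) with r of at most -0.1. The order of these counts was not stable, with 96 positive and 86 negative genes at a minimum of 1500 genes per cell and 71 and 70 with the mitochondrial share under 15%, and at 2000 UMIs per cell they were 9 and 52. TFPI2 led with 0.28 and 0.24, then CHGB with 0.25 and 0.24, the actin gene ACTB with 0.16 and 0.28, the endosomal tetraspanin gene CD63 with 0.20 and 0.24, and the chaperone genes HSP90AA1 with 0.18 and 0.25 and HSP90B1 with 0.13 and 0.28. The lowest were RPS13 (-0.23 and -0.27), RPS2 (-0.23 and -0.27), RPL35A (-0.25 and -0.24) and RPL29 (-0.20 and -0.30). Of 79 ribosomal protein genes, 70 were called negative with VGF, against 2 with GAL, 3 with NPY and 0 with CARTPT, and 10 were called positive with GAL. Among all genes tested, 0.578% were negative with GAL, 0.0578% with NPY and 0.135% with CARTPT, and 6.13% were positive with GAL. The median mean r of the 79 genes was -0.20 with VGF, -0.0464 with NPY, 0.0285 with CARTPT and 0.0623 with GAL, beside 0.0120, 0.0111, -0.000397 and 0.0186 over all genes tested.

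CARTPT had 11 genes (0.212%) with r of at least 0.1 in both flasks and 7 (0.135%) with r of at most -0.1. GNAS had 0.21 and 0.21, DLK1 0.21 and 0.21, CDKN1C, an inhibitor of cyclin-dependent kinases, 0.17 and 0.18, and NMB, which encodes neuromedin B, 0.13 and 0.19. DDC, the decarboxylase that makes dopamine, had 0.12 and 0.17, and GAL 0.17 and 0.11. PTMA, which encodes prothymosin alpha and is abundant in dividing cells, had -0.16 and -0.14, and the mitochondrially encoded MT-ATP6, MT-CO2 and MT-CO3 had values from -0.18 to -0.11. GAL is itself 1 of the 11 genes, and the 10 others were all positive with GAL, beside 6.13% of all genes tested. Of the 11, 4 were positive with NPY and 4 with VGF, with GAL counted in both, beside 1.68% and 1.46% of all genes. At 2000 UMIs per cell 2 genes were positive and 2 negative with CARTPT, and a minimum of 1500 genes per cell gave 23 positive genes. With a UMI in so few cells, these values rest on 37 and 43 cells.

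**Figure D4:**
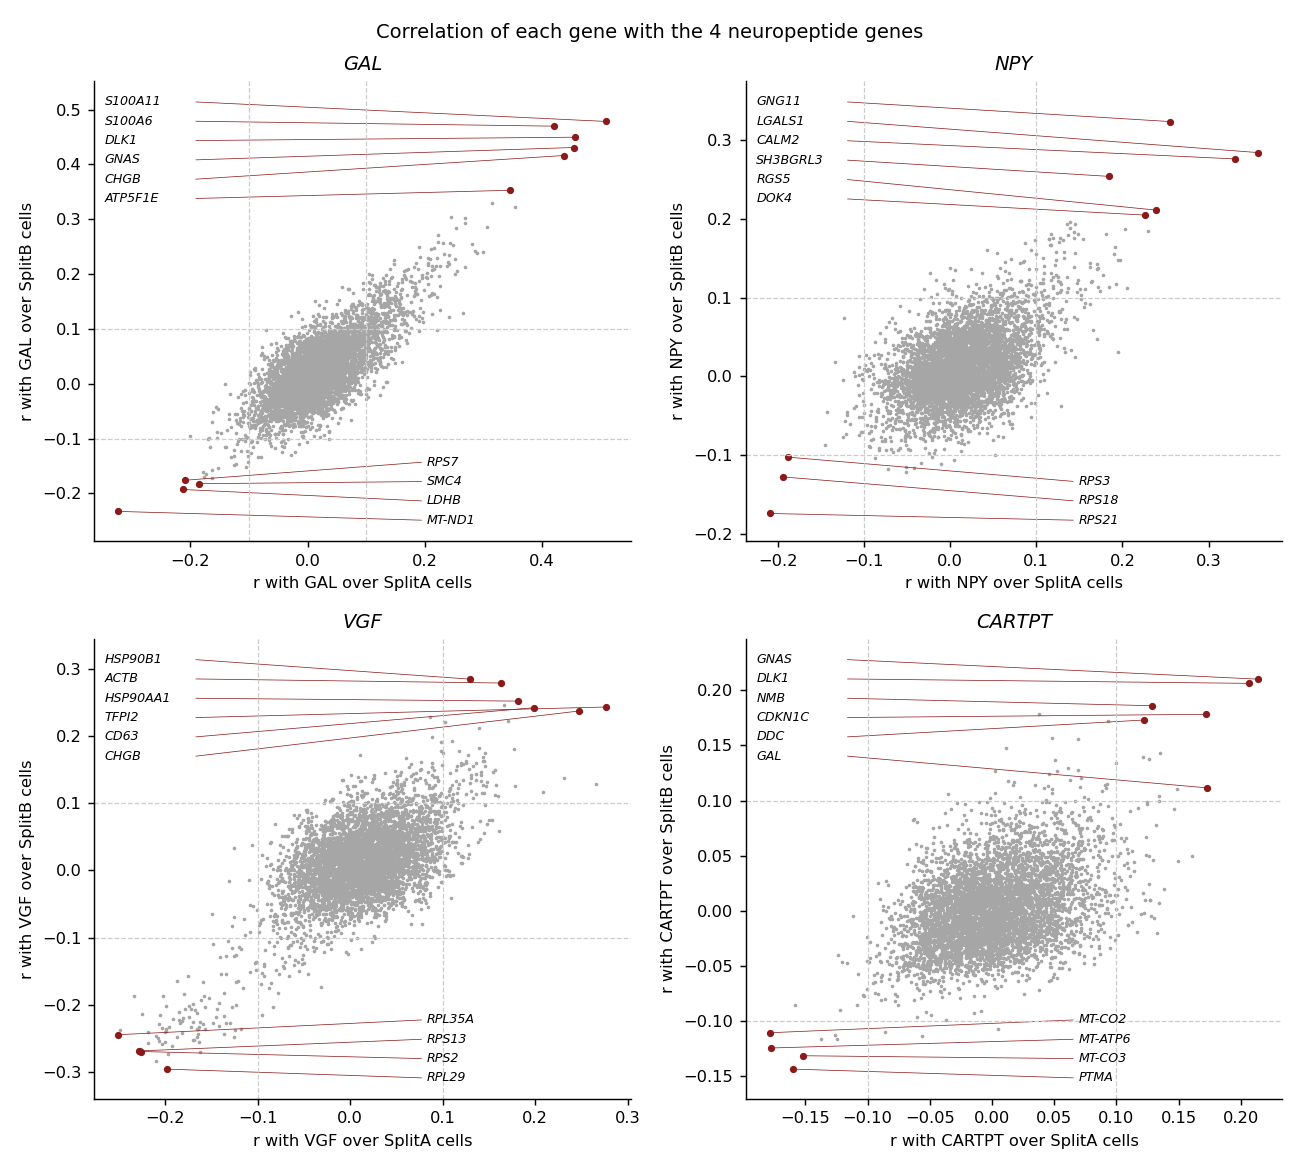
Pearson's r of every gene tested with GAL, NPY, VGF and CARTPT over SplitA cells (horizontal axis) and SplitB cells (vertical axis), with dashed lines at -0.1 and 0.1 and the genes of highest and lowest mean r in red with their names. The cloud of GAL is the longest, reaching S100A11 at 0.51 and 0.48, and VGF has an arm of ribosomal protein genes down to RPL29 at -0.20 and -0.30.

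Positive with GAL, NPY and VGF alike were 6 genes: CYB561, GNG11, LGALS1, RABAC1, S100A6 and TAGLN2. CYB561 encodes the cytochrome of secretory granule membranes that supplies ascorbate-derived electrons to granule enzymes, and its mean r over both flasks was 0.23 with GAL, 0.16 with NPY and 0.16 with VGF.

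The genes that receive, cut and store these peptides were measured in lists chosen for their known roles. Of 8 receptor and peptidase genes for galanin and NPY, 6 had no UMI in any kept cell, among them GALR1, GALR3, NPY1R, NPY5R and DPP4. NPY2R had 3 and 5 UMIs and GALR2 0 and 1. A count of 0 in these libraries allows up to 0.513 CPM in SplitA and 0.372 CPM in SplitB, where 3 counts were taken as the limit, so the 6 genes were not detectable at this depth.

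Of 35 genes for precursor processing and granules, 31 had a UMI. PCSK1, the prohormone convertase of many neuropeptide precursors, had none, and PCSK2 had 2 and 3 UMIs, while PCSK1N, whose product inhibits PCSK1, had 1575 and 2286 UMIs (269 and 283 CPM). CPE, the carboxypeptidase that trims the cut peptides, had 48.2 and 48.3 CPM and PAM, the amidating enzyme, 27.2 and 33.8 CPM. CHGA had 409 and 387 CPM, CYB561 233 and 217, CHGB 192 and 183 and SCG3 151 and 154. Among the 19 of these genes tested for correlation, 6 were positive with GAL, 1 with NPY, 0 with CARTPT and 5 with VGF, and none was negative with any of the 4. The shares over all genes tested were 6.13%, 1.68%, 0.212% and 1.46% positive, respectively. The counts of 1 with NPY and 0 with CARTPT among 19 genes are near these shares. CHGB, CHGA, CYB561, PTPRN and SCG2 were positive with GAL and with VGF, whose values for SCG2 were 0.15 and 0.16 (GAL) and 0.17 and 0.22 (VGF), and CYB561 was the 1 gene positive with NPY, at 0.14 and 0.18. The medians of the mean r of the 19 genes were 0.0461 with GAL, 0.0282 with NPY, 0.0284 with CARTPT and 0.0523 with VGF.

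Of 53 other neuropeptide and peptide hormone genes, 25 had no UMI and 36 had at most 3 UMIs in both flasks together, among them SST, PENK, TAC1 and ADCYAP1 with none. NMB had the highest level at 143 and 144 CPM, then NPB at 44.6 and 41.8, NPW at 30.6 and 27.8, CALCB at 24.1 and 19.6 and NMU at 19.99 and 18.1. VIP, which neuroblastoma can secrete, had 6.66 and 8.80 CPM. Thus all other genes of the list were below VGF, and those after NMB were below 50 CPM. Of the 5 genes of the list tested, NMB and NPB were positive with GAL (0.14 and 0.21, 0.16 and 0.14), beside 6.13% of all genes tested.

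Genes of catecholamine synthesis, transport and breakdown were listed because sympathetic neurons release NPY with noradrenaline. All 14 had a UMI, but TH, the rate-limiting enzyme of the pathway, had 9 UMIs in each flask, while DBH, which makes noradrenaline, had 335 and 325 CPM and DDC 97.6 and 110.3. Of the 8 genes tested, 4 were positive with GAL, 0 with NPY and 1 each with CARTPT and VGF. Beside them, 6.13%, 1.68%, 0.212% and 1.46% of all genes tested were positive with GAL, NPY, CARTPT and VGF. The count of 0 with NPY is near its share. With GAL, DBH had 0.27 and 0.21, DDC 0.25 and 0.28, QDPR, which regenerates the cofactor of TH, 0.25 and 0.23, and the vesicular transporter gene SLC18A1 0.19 and 0.16. With VGF, DBH had 0.15 and 0.13. DBH with NPY, at 0.11 and 0.0991, was just outside the limit.

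Of 19 genes of CREB signalling and activity, 18 had a UMI and 6 were tested, and none was called with any of the 4 genes in either direction. At most 6.13% of all genes tested were called for any of the 4 genes in either direction. No call among 6 genes is near this share and tells nothing about the list. FOS had 24.3 and 28.9 CPM and NR4A2 no UMI. By mean r, the largest values were 0.0983 and 0.0753 for EGR1 with GAL and 0.112 and 0.0558 for JUNB with NPY. They were 0.0964 and 0.0646 for FOS with CARTPT, and 0.0765 and 0.0882 for EGR1 with VGF. NPY lacks the CRE in the bases shown above, and CARTPT and VGF have it. Whether the element bears on these values was not tested. Of 12 neuronal genes tested, NPY was positive with 2, ELAVL4 (0.13 and 0.17) and STMN2 (0.11 and 0.10), and VGF with 1, the receptor tyrosine kinase gene RET (0.15 and 0.15). Among all genes tested, 1.68% were positive with NPY and 1.46% with VGF.

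Genes of S phase and of G2 and mitosis were summed per cell and cells divided into tertiles by this sum. GAL was lower in each further tertile. SplitA had 1869.6 CPM in the lowest, 998 in the middle and 761 in the highest, and SplitB 1830.4, 1191 and 952. The intervals did not overlap, but they cover counting error only. GAL UMIs per cell had a mean of 7.83 and SD of 22.4 in SplitA and 8.94 and 19.7 in SplitB. Spread between cells thus exceeds counting error, and gaps between the intervals do not measure it. CARTPT had 26.1 CPM (19.4 to 34.4) in the lowest, 5.13 in the middle and 2.51 (0.816 to 5.87) in the highest tertile of SplitA. In SplitB it had 42.8, 5.25 and 3.12 (1.35 to 6.14), and 20.9 (15.7 to 27.2) in the lowest without the cell of 58 UMIs. NPY had 341, 366 and 309.8 CPM in SplitA and 468, 413 and 385 in SplitB. VGF had 221, 204 and 212 CPM in SplitA with overlapping intervals, and in SplitB 329, 263 and 254, of which the first was 253 without that cell. The median UMIs per cell of the tertiles lay between 5875 and 6527.5 in SplitA and between 6299 and 6410.5 in SplitB. Of 21 S phase genes tested 1 and of 17 genes of G2 and mitosis 4 were negative with GAL, beside 0.578% of all genes tested. CENPF had -0.16 and -0.17 and NUSAP1 -0.15 and -0.15. None was called with NPY, CARTPT or VGF, for which at most 1.87% of all genes were called in either direction. No call in these lists is near that share.

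**Figure D5:**
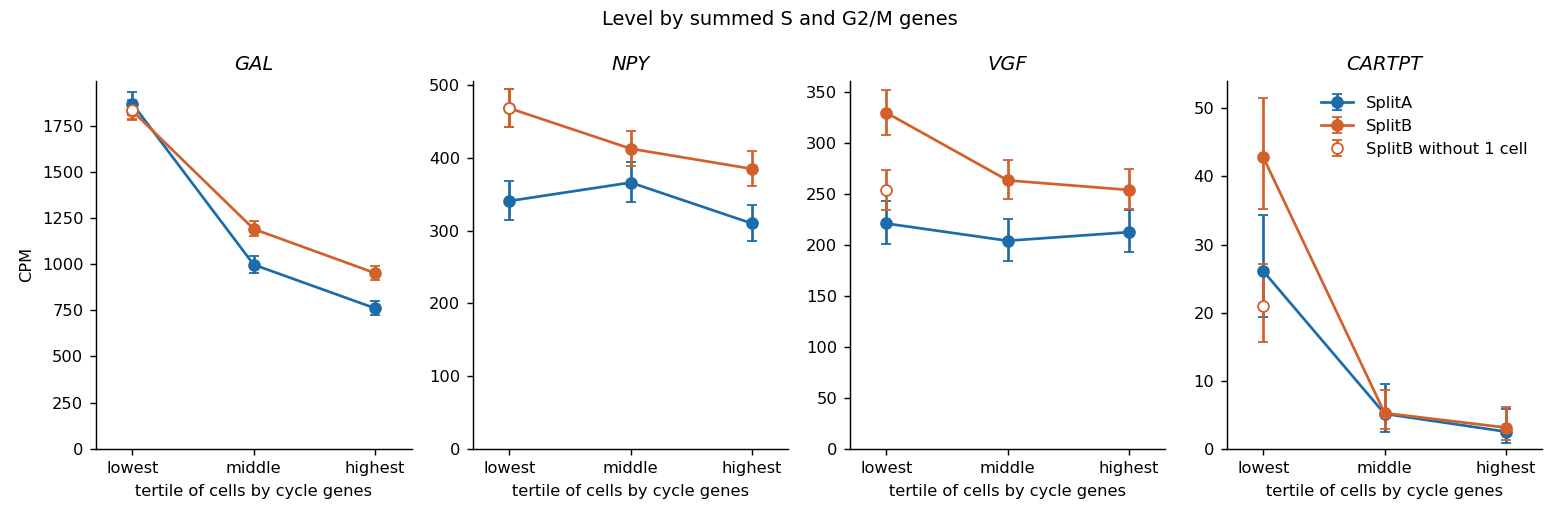
CPM of each gene (vertical axis, from 0) in tertiles of cells by the summed S and G2/M genes, with a line per flask and exact 95% intervals, and open points for the lowest SplitB tertile without the cell of 58 CARTPT UMIs. GAL goes from 1869.6 to 761 CPM in SplitA and CARTPT from 26.1 to 2.51, while NPY and VGF stay within 309.8 to 468 and 204 to 329 CPM.

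Tertiles by the share of ribosomal protein UMIs per cell separated all 3 of the more abundant genes. VGF went from 332 CPM in the lowest over 208 to 124 in the highest tertile of SplitA and from 507 (416 without the cell of 203 UMIs) over 257 to 139 in SplitB. GAL went from 2149 to 623 and from 2234 to 692, and NPY from 525 to 185.3 and from 671 to 260.2. CARTPT had 9.74, 8.62 and 14.6 CPM in SplitA, with overlapping intervals, and 34.9 (8.65 without the cell of 58 UMIs), 9.69 and 10.4 in SplitB. For GAL this order of CPM was opposite in sign to the median r with ribosomal protein genes given above. The shares of all genes in a cell sum to a fixed total, and the part of this in these values was not tested. The lowest tertile also had fewer UMIs per cell, a median of 5043 against 6770 in SplitA and 5085 against 7187 in SplitB. By UMIs per cell GAL went from 667 over 1299 to 1366 CPM in SplitA and from 998 over 1089 to 1609.9 in SplitB, and NPY from 458 over 369 to 269 in SplitA but 441, 465 and 386 in SplitB.

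Of the kept cells, 174 had a mitochondrial share of 15% or more. VGF was at 380.2 CPM (292 to 486) in the 53 SplitA cells with 15% to 30% and 537 (348 to 793) in the 17 with 30% or more, against 207 (194 to 221) in those with 5% to 10%. In SplitB it was at 566, 544 and 229.9 CPM, respectively. GAL was lower at 15% to 30%, with 561 against 1294 CPM in SplitA and 858 against 1358 in SplitB. CARTPT had no UMI in the cells of 15% or more, which allows up to 14.1 CPM in SplitA and 8.76 CPM in SplitB. Over all kept cells CARTPT was at 11.1 CPM in SplitA, and in SplitB at 16.9, or 9.68 without the cell of 58 UMIs. In SplitA the limit lies above the level of all kept cells, so the count of 0 does not show a lower level there. In SplitB the limit of 8.76 CPM lies below 16.9 and slightly below 9.68. These limits cover counting error only, and CARTPT was found in 43 of 1195 SplitB cells. A lower level of CARTPT in the SplitB cells of 15% or more is therefore not established. Without these cells GAL was found in 86.2% and 87.1% of cells.

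The cells carried the markers of the line. All 12 adrenergic genes listed had a UMI, and PHOX2A, the homeobox factor of sympathetic neurons, was found in 94.9% and 93.6% of cells, but TH (9 and 9 UMIs) and INSM1 (0 and 4) were near 0. The 12 mesenchymal genes summed to 178 and 174 CPM, of which TWIST1 had 166 and 159.9, and PRRX1, COL1A2, MEOX2 and AXL had none. The 8 glial and Schwann genes summed to 5.98 and 5.45 CPM and the 10 genes of other cell types to 22.6 and 22.9 CPM, with SOX10, PTPRC, PECAM1, VWF, KRT5 and DCN at 0. Of the 9 adrenergic genes tested, PHOX2A, HAND2 and DBH were positive with GAL, with PHOX2A at 0.14 and 0.15, beside 6.13% of all genes tested.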

How the data were processed

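SH-SY5Y cells of 2 flasks were sequenced as 1 pooled library. The counts deposited by the authors are UMI counts per Ensembl gene and hashtag in each filtered cell, without normalization. The submitters' processing notes name STAR 2.7 and Cell Ranger 4.0.0 with GRCh38, and the version of the gene annotation used for counting is not given in the sources used here. Of the identifiers, 33113 had a symbol. Flasks were assigned with the limits of the study's supplementary code (a ratio of 3, at most 185 counts of the other hashtag). The labels name the same split for both hashtags, so SplitA (Hashtag-1) and SplitB (Hashtag-2) follow the paper. Replicate 1 stands for SplitA and replicate 2 for SplitB. The members and gene lists were chosen with earlier results of these data known. Named genes are the 4 members, per member the 6 highest and 4 lowest by mean r among those called in both flasks, and list members with the most UMIs or largest r; genes of the single cell, the genes shared by 3 members and list genes at 0 or near it were named after their values were seen. Kept cells held 1801 to 27205 UMIs. Thinning used seed 7. Python 3.11.15 with numpy 2.4.6, scipy 1.17.1, pandas 2.3.3 and matplotlib 3.10.9 was used, and the correlation step was tested on simulated data. No doublet caller was run. Alternatives changed the minimum of genes (500, 1500), the mitochondrial limit (15%), the hashtag limit (100), depth and the correlation measure. Values of some listed marker genes are not reported here.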

Additional observations from a re-analysis of the deposited data

How the results depend on the processing

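No result has a test. Levels, shares and log2 ratios were compared with their own counting interval, r between members with the spread (1 SD) between the flasks, and counts of genes with a limit of 1.5 times the reported count. Of 300 values under alternatives 204 stayed within these limits, 94 moved and 2 log2 ratios between flasks changed sign. With 1 flask left out, a mean r cannot pass its limit, so 6 of 6 such values for each flask stayed by construction. They are counted in the 204 and say nothing about stability. The limit for r is also widest where the flasks differ most. GAL with VGF stayed within it, though its mean r was 0.26 with a minimum of 1500 genes and 0.13 with 500. CARTPT with VGF also stayed, though its r in SplitB was 0.0177 without the cell of most UMIs of each member. Both flasks come from 1 culture and 1 library, so no spread between cultures is known. CARTPT rests on few UMIs, and cells of over 2 times the median UMIs can be doublets. No paired analysis was possible because the flasks form 1 pair and no test was made. The cause of a move was not tested, other than by what each setting leaves out.

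Thinned to 2000 UMIs per cell, the shares of cells in SplitA and SplitB were 59.0% and 60.5% (GAL), 37.8% and 40.3% (NPY), 32.7% and 35.7% (VGF), and 1.67% and 1.01% (CARTPT). CPM was 1067 and 1155 for GAL, 366 for NPY in SplitA, 227 and 297 for VGF, and 10.9 for CARTPT in SplitB. The log2 ratio was 0.24 for NPY and -0.0313 for CARTPT (reversed, interval -0.93 to 0.89), and the mean r was 0.10 for GAL with NPY, 0.0972 for GAL with CARTPT and 0.0739 for NPY with VGF. Positive genes numbered 40 (GAL), 7 (NPY), 9 (VGF) and 2 (CARTPT), and negative genes 9 (GAL), 52 (VGF) and 2 (CARTPT).

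With a minimum of 500 genes, shares were 73.8% and 75.2% for GAL, 53.9% and 56.9% for NPY and 57.8% and 59.9% for VGF, and CPM was 1161 and 1277 for GAL and 229 for VGF in SplitA. The mean r was 0.0723 for CARTPT with VGF, -0.0066 for NPY with CARTPT and 0.0859 for NPY with VGF. Positive genes numbered 802 (GAL), 230 (NPY) and 7 (CARTPT), and negative genes 70 (GAL), 6 (NPY) and 0 (CARTPT). With a minimum of 1500 genes, shares were 90.0% and 89.9% for GAL and 66.6% for NPY in SplitB, GAL had 1299 and 1402 CPM, and NPY with VGF had a mean r of 0.12. There were then 23 genes positive with CARTPT, 76 negative with GAL and 61 negative with NPY. VGF then had 96 positive and 86 negative genes, the opposite order.

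With the mitochondrial share under 15%, GAL was found in 86.2% and 87.1% of cells, VGF had 269 CPM in SplitB, and 58 genes were negative with GAL and 67 with NPY. With the hashtag limit at 100, GAL had 1138 CPM in SplitA and a log2 ratio of 0.20, and NPY with CARTPT a mean r of 0.000116. Without cells over 2 times the median UMIs, GAL had 1171 and VGF 265 CPM in SplitB, and the log2 ratio of GAL was -0.0094 (reversed). Leaving out the cell with most UMIs of each member, chosen after seeing the data, gave GAL 1092 and 1289 CPM, VGF 256 and CARTPT 9.72 in SplitB, log2 ratios of 0.24 (GAL), 0.31 (VGF) and 0.12 (CARTPT), and 17 genes positive with CARTPT.

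By Spearman's rho 20 genes were positive and 4 negative with CARTPT, and 46 negative with NPY. At a limit of 0.15 the counts were 99 positive and 10 negative (GAL), 12 and 1 (NPY), 8 and 64 (VGF), and 3 and 0 (CARTPT). A single flask gave 472 to 507 positive and 55 to 79 negative genes for GAL, 172 to 183 and 13 to 33 for NPY, 145 to 252 and 110 to 164 for VGF, and 45 to 66 and 10 to 20 for CARTPT.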
